A study of Mus musculus with 4 samples.

Results

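Transcripts of 10 genes of the melanocyte, the pigment cell of skin and hair, were followed in treated mouse skin on 3′ expression arrays. The members were chosen by gene name, with earlier results of these data known. Their probe sets are those that the platform annotation assigns to Tyr, Tyrp1, Dct, Pmel, Mlana, Oca2, Slc45a2, Mitf, Kit and Ednrb. All 10 were among the 18193 genes measured. Skin treated with MC903 (calcipotriol, an analogue of vitamin D whose application inflames the skin of mice) gave 2 arrays, and Control skin treated with its vehicle, ethanol, gave 2 arrays. All mice were female wild-type BALB/c. Both groups had been sensitised on the ear skin with ovalbumin, an egg-white protein, together with MC903, so the Control mice had met MC903 too. They had then received ovalbumin by mouth, before and after the treatment that sets the groups apart. The labels give neither the age of the mice nor the treated body site, and they do not say whether each array stands for another mouse. The p-values therefore cover the spread between arrays alone, and this spread may be technical.

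Melanocytes make melanin inside melanosomes, organelles that they pass to keratinocytes of the hair shaft and epidermis. Mitf is the transcription factor that sets this lineage, Kit and Ednrb are the receptors through which stem cell factor and endothelins reach its cells, and the enzymes Tyr, Tyrp1 and Dct carry out the steps of melanin synthesis. In mouse hair follicles pigment is made while the hair shaft grows and stops between growth phases. BALB/c is an albino strain whose tyrosinase lacks activity, so its melanocytes carry pigment transcripts but make no melanin. The arrays report transcripts only.

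The promoters of the 3 enzymes of the tyrosinase family are shown. The M-box, the sequence through which MITF is known to bind pigment gene promoters, lies in each of them. They were chosen with the lower signals of these genes and of Mitf known, and a link between these signals was not tested. The windows run from 250 bases before to 50 bases after the annotated start, 5′ to 3′ on the gene's strand, from RefSeq on GRCm38.p6. Capitals mark the M-box core TCATGTG, or CACATGA where it lies on the opposite strand. The Tyr window is chr7:87493463-87493762 on the minus strand, that of Tyrp1 chr4:80833963-80834262 on the plus strand, and that of Dct chr14:118052197-118052496 on the minus strand.
Tyr: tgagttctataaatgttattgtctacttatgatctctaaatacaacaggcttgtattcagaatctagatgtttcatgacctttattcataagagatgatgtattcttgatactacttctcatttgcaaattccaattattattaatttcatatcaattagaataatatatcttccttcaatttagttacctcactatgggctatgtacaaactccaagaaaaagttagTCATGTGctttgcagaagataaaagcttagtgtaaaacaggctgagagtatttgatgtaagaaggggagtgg
Tyrp1: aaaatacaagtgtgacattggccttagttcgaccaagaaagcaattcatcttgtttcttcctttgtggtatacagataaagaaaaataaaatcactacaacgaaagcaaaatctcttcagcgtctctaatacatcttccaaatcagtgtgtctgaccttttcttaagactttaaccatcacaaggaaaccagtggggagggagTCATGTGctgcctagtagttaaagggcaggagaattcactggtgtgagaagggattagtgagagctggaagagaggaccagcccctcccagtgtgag
Dct: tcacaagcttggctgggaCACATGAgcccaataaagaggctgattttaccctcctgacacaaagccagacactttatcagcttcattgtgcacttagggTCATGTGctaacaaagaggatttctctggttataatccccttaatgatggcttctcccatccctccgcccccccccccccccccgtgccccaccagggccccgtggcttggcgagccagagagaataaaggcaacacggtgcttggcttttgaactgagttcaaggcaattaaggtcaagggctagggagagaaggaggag

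The core begins 22 bases before the start in Tyr and 47 bases before it in Tyrp1. Dct holds it 2 times, beginning 232 bases before the start on the opposite strand and 151 bases before it on the gene's own strand. Of 32851 mouse promoter windows of the same length, 3.77% held TCATGTG on either strand. Among the members, 7 had windows, 10 in all (Pmel, Mlana and Slc45a2 had none), and the core was found in those of Tyr, Tyrp1 and Dct alone. The members are counted by gene and the shares over all promoters by window, so these are unlike units. The shorter E-box CATGTG, which lies inside the M-box core, was held by 14.2% of all windows and by those of Tyr, Tyrp1, Dct and Oca2. In Oca2 it begins 186 bases before the start. The core ACAAAG, of the kind that SOX factors bind, was held by 18.7% of all windows and by those of Tyrp1, Dct and Oca2. The E-box CACGTG was in 7.15% of all windows and in 0 of the members' windows. A match is a description of the letters and not of a bound site.

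Pigment transcripts were lower in MC903 skin than in Control skin on both MC903 arrays. All 7 pigment genes had both MC903 signals below both Control signals, and so had Mitf and Kit, which made 9 of 10 members, against 28.2% of all genes. Both MC903 arrays lay above both Control arrays for 0 of 10 members, against 21.6% of all genes. The median log2 difference, MC903 minus Control, was -1.15 over the 7 pigment genes, -0.51 over Mitf, Kit and Ednrb, and -0.04 over all genes. None of the 10 passed limma's test after Benjamini-Hochberg adjustment over all genes at 0.05, a test that called 0 genes in all (0% of genes lower), with a smallest adjusted p of 0.0561. Without adjustment, 7 of the 10 lay below 0.05 in limma, all of them lower, against 8.39% of all genes lower (1526 genes) and 6.82% higher (1241 genes). These were Tyr, Tyrp1, Dct, Pmel, Mlana, Slc45a2 and Mitf. Because the members were chosen with earlier results of these data known, their counts beside the shares over all genes are descriptions only. With 2 arrays per group, the smallest two-sided p that an exact permutation test allows is 0.333. In bulk skin, fewer melanocytes and less RNA per melanocyte cannot be told apart.

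Signals are given on the authors' linear scale, on which the trimmed mean of each array is 500, and differences are on the log2(signal + 16) scale with the standard error of the limma fit (n = 2 arrays per group). The median probe-set signals were 90.2 and 99.6 on the MC903 arrays and 109 and 99.7 on the Control arrays. Control probe sets for the bacterial TrpnX gene, a guide to background, had signals of 1.55 to 24.0, and all 10 members lay above them on every array.

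The pigment enzymes of the tyrosinase family came out as follows. Tyr encodes tyrosinase, which starts melanin synthesis from tyrosine. Its signals were 215 and 297 on the MC903 arrays, against 682 and 612 on the Control arrays. The groups lay well apart, the MC903 mean being 39.6% of the Control mean, and the difference of -1.30 ± 0.22 had an adjusted p of 0.178 (limma). Tyrp1, which encodes a related melanosome enzyme that acts later in the pathway, had 915 and 1299 with MC903, against 3218 and 2573 in Control skin. The groups lay apart, and the smallest gap among the 4 pairings of an MC903 with a Control array was a log2 difference of -0.98. Tyrp1 had the largest difference of the members, -1.39 ± 0.25 (limma, adjusted p = 0.190), and 0.852% of all genes had a more negative one. Dct, the dopachrome tautomerase, had signals of 1299 and 1549 with MC903, against 3202 and 2070 in Control skin. Here the Control arrays were themselves far apart, and the smallest gap among the 4 pairings was a log2 difference of -0.41. Its overall difference was -0.85 ± 0.27 (limma, adjusted p = 0.293), with -0.54 without Control replicate 1 and -1.17 without Control replicate 2.

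**Figure D1:**
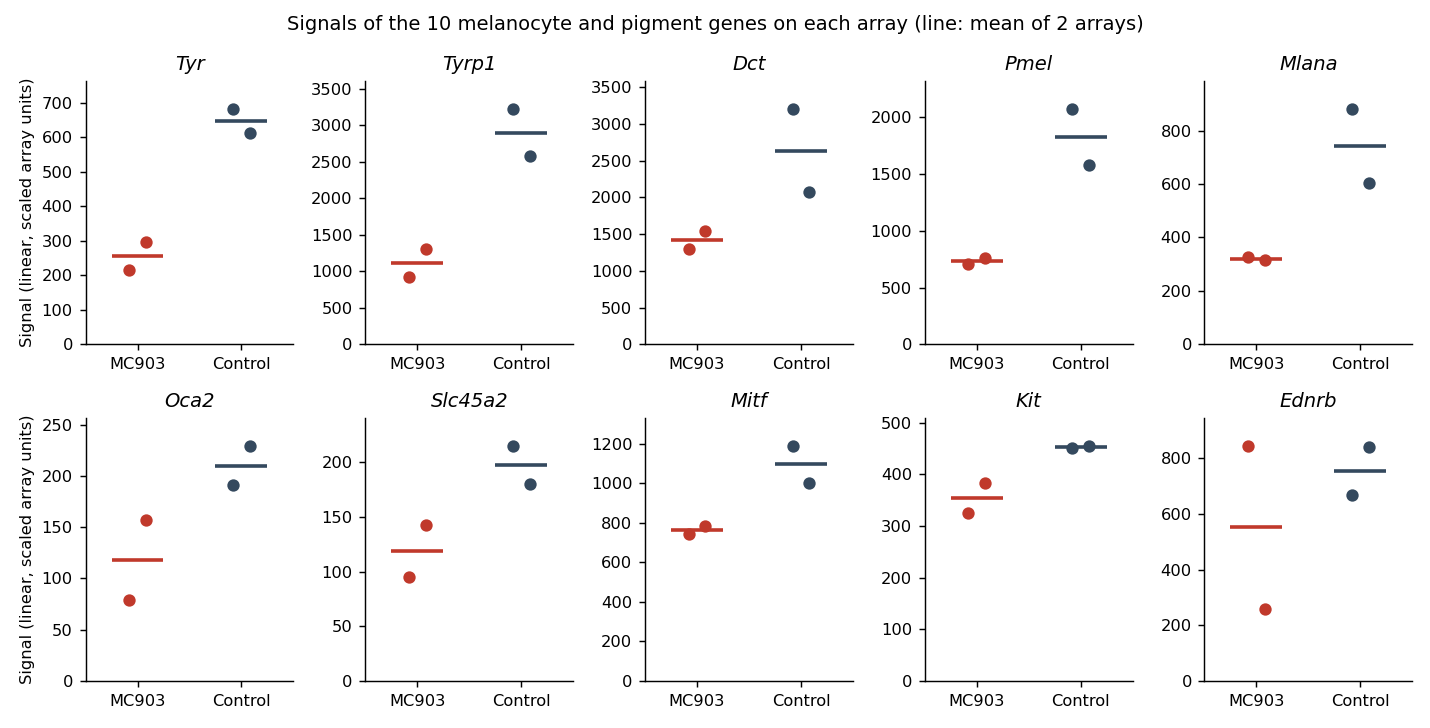
Signal of each of the 10 genes (linear scaled array units, axes from 0) on the 2 MC903 arrays (red, left) and the 2 Control arrays (dark, right), with horizontal lines at the group means. For 9 genes both MC903 points lie below both Control points, while the MC903 points of Ednrb lie at 844 and 259 on either side of the Control points.

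Genes of melanosome structure and assembly had nearly equal signals on the MC903 arrays. Pmel forms the amyloid fibres on which melanin is laid down. Pmel signals were 711 and 763 with MC903, against 2073 and 1583 in Control skin. The MC903 arrays nearly coincided at 40.3% of the Control mean, and the difference was -1.28 ± 0.20 (limma, adjusted p = 0.172). Pmel was the one member called under limma's prior variance modelled on the signal (adjusted p = 0.0406), a setting that called 0.385% of all genes lower and 0.539% higher. Under that prior the difference of Pmel was -1.23 without MC903 replicate 1 (limma, adjusted p = 0.0671, with 227 genes called in all), -1.09 without Control replicate 1 (0.356, with 15 genes called) and -1.47 without Control replicate 2 (0.254, with 5 genes called). Without MC903 replicate 2, where 946 genes were called in all, the members called were Tyrp1 (-1.64, limma, adjusted p = 0.0118), Tyr (-1.52, adjusted p = 0.0200) and Pmel (-1.33, adjusted p = 0.0283). Mlana, which encodes a melanosome protein also known as MART-1 that is needed for Pmel to mature, had 327 and 314 with MC903, against 880 and 604 in Control skin. Its difference was -1.15 ± 0.24 (limma, adjusted p = 0.202), the MC903 mean being 43.2% of the Control mean.

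The transporters of the melanosome showed smaller differences. Oca2 encodes a melanosomal membrane protein that acts on ion balance and pH. It had 78.8 and 157 with MC903, against 191 and 229 in Control skin, so that MC903 replicate 2 stood close to the Control arrays while replicate 1 did not. The difference of -0.82 ± 0.34 (limma, adjusted p = 0.365) was -1.25 without MC903 replicate 2 and -0.38 without MC903 replicate 1. Slc45a2, a transporter that also acts on melanosome pH, had 95.2 and 143 with MC903, against 215 and 180 in Control skin. Its difference was -0.68 ± 0.24 (limma, adjusted p = 0.319), with -0.42 without MC903 replicate 1, -0.94 without MC903 replicate 2 and -0.35 on its other probe set. At least a 2-fold gap in all 4 pairings, on the log2(signal + 16) scale, was reached by Tyr and Pmel, 2 of the 10 members, against 0.813% of all genes.

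Of the lineage regulator and receptors, Mitf and Kit differed less than the 7 pigment genes, while Ednrb lay near Slc45a2. Mitf had signals of 742 and 783 with MC903, against 1188 and 1003 in Control skin. The groups did not overlap, the MC903 mean was 69.6% of the Control mean, and the difference was -0.51 ± 0.17 (limma, adjusted p = 0.306). Kit, the receptor for stem cell factor, had 326 and 384 with MC903, against 452 and 455 in Control skin. This was the smallest difference of the 10 in size, -0.34 ± 0.17 (limma, adjusted p = 0.420), and 21.1% of all genes had a more negative one. Ednrb, the endothelin B receptor, had 844 and 259 with MC903, against 669 and 839 in Control skin. Its groups overlapped, with the highest and the lowest signal both among the MC903 arrays, and the difference of -0.65 ± 0.59 (limma, adjusted p = 0.638) was 0.17 without MC903 replicate 2 and -1.47 without MC903 replicate 1.

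Beyond the 10 probe sets above, 6 of the members had 9 further probe sets, and these ran the same way. All 19 probe sets had a negative difference, and in 16 of them both MC903 arrays lay below both Control arrays, as was the case for 27.6% of the 34945 probe sets with 1 gene symbol. For Tyr the other probe sets differed by -0.97 and -1.08, and for Tyrp1 by -1.36 and -1.06. The last comes from a probe set with the _x_at suffix, which warns that other transcripts may bind it. The dimmer probe set of Mitf had 62.8 and 88.2 with MC903, against 124 and 87.6 in Control skin, so that the groups overlapped by a narrow margin. The other probe sets of Ednrb differed by -0.74 and -0.84, more than either probe set of Slc45a2. For Ednrb all 3 probe sets had their lowest signal on MC903 replicate 2. On MC903 replicate 1, however, the other Ednrb probe sets read 223 and 202, against Control signals of 360 and 222 on one and 223 and 250 on the other, so they did not repeat the high value of 844. Probe sets of 1 gene share their RNA and are not replicates.

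**Figure D2:**
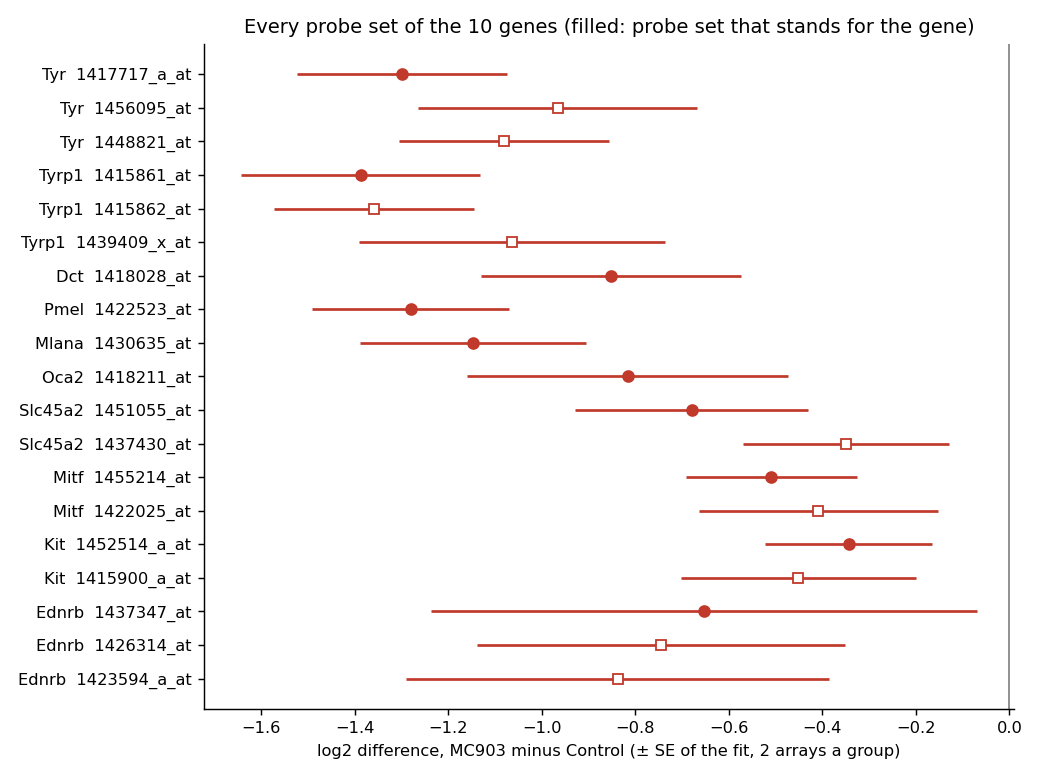
Log2 difference, MC903 minus Control, of each of the 19 probe sets of the 10 genes, with the standard error of the fit over all probe sets (n = 2 arrays per group). Filled circles are the probe sets that stand for the genes, open squares the others, and all lie left of 0, the Ednrb bars being the widest.

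Pigment genes and lineage genes were set side by side within each array. Taken as mean log2 values less that of Mitf, and set to 0 at the Control mean, the 7 pigment genes stood at -0.71 and -0.41 on the MC903 arrays, against 0.02 and -0.02 on the Control arrays. The pigment genes were therefore lower relative to Mitf in MC903 skin as well (-0.56), and the arrays of the groups did not overlap. Bulk skin does not resolve which cells gave the Mitf signal, so this contrast is not one within melanocytes. Gene by gene, the groups lay apart relative to Mitf for Tyr (-0.79), Tyrp1 (-0.88), Dct (-0.34), Pmel (-0.77) and Mlana (-0.64), and overlapped for Oca2 (-0.31) and Slc45a2 (-0.17). Relative to Kit the 7 genes stood at -0.80 and -0.65 on the MC903 arrays, against 0.15 and -0.15 on the Control arrays. Relative to Ednrb they stood at -1.42 and 0.60, against 0.30 and -0.30, with overlap. These contrasts are descriptions, since 2 arrays a group cannot reach a threshold of 0.05 in an exact test.

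**Figure D3:**
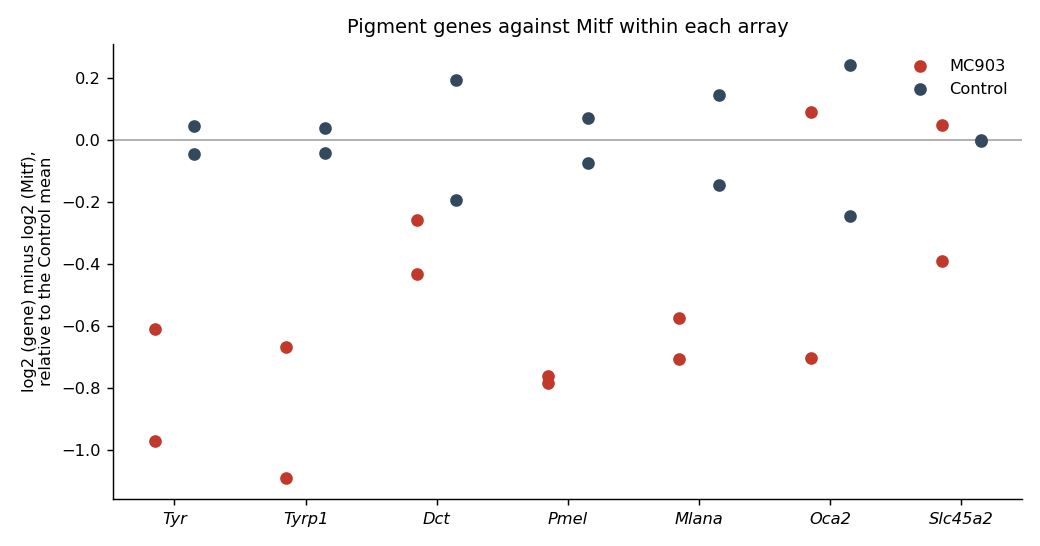
Log2(signal + 16) of each pigment gene less that of Mitf on the same array, set to 0 at the Control mean, for the 2 MC903 arrays (red, left of each pair) and the 2 Control arrays (dark, right). The MC903 points of Tyr, Tyrp1, Dct, Pmel and Mlana lie below both Control points, and those of Oca2 and Slc45a2 do not.

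Other genes of the melanocyte lineage were read from lists of transcription factors, signals and organelle genes. Many of the 15 melanocyte transcription factors are used by other skin cells too, and their median difference was -0.37. On both MC903 arrays 8 were lower and 5 higher, against 28.2% and 21.6% of all genes. Sox10, which acts above Mitf and also marks Schwann cells, had 119 and 119 with MC903, against 158 and 158 in Control skin, a difference of -0.37 ± 0.15 (limma, adjusted p = 0.357). Relative to Sox10 the 7 pigment genes stood at -0.88 and -0.51 on the MC903 arrays, against 0.15 and -0.15 on the Control arrays. Pax3, another factor upstream of Mitf, had 75.3 and 65.2 with MC903, against 191 and 87.2 in Control skin, and the gap between the nearest arrays of the groups was small. Lef1, a Wnt pathway factor of hair matrix and melanocytes, had 50.02 and 75.3 with MC903, against 165 and 204 in Control skin (-1.36 ± 0.24, limma, adjusted p = 0.187). In the other direction Tfec, a relative of Mitf that macrophages express, had 463 and 113 with MC903, against 77.4 and 64.8 in Control skin. Irf4, a factor of lymphoid and myeloid cells that also acts on Tyr in human melanocytes, had 167 and 226 with MC903, against 157 and 15.8 in Control skin, the last within the range of the TrpnX probe sets.

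Signals that reach melanocytes and their receptors did not move as a block, with a median difference of -0.08. On both MC903 arrays 6 of 15 measured genes were lower and 4 higher, against 28.2% and 21.6% of all genes. Mc1r, the melanocortin receptor that steers melanocytes towards black pigment, had 60.8 and 92.0 with MC903, against 237 and 214 in Control skin. Its groups lay far apart, and its difference of -1.40 ± 0.23 (limma, adjusted p = 0.177) was of the size of that of Tyrp1. Kitl, the ligand of Kit, had 729 and 933 with MC903, against 1398 and 1087 in Control skin (-0.57 ± 0.23, limma, adjusted p = 0.349). Edn3, the endothelin that feeds Ednrb in the skin lineage, had 178 and 203 with MC903, against 194 and 208 in Control skin, so its groups overlapped (-0.08 ± 0.16). Its probe set has the _x_at suffix, which warns that other transcripts may bind it. The other endothelins, Edn1 (-0.76 ± 0.17, limma, adjusted p = 0.214) and Edn2 (-1.02 ± 0.21, limma, adjusted p = 0.206), were lower on both MC903 arrays. The ligands Hgf and Nrg1 were higher on both MC903 arrays, Hgf with 213 and 94.0, against 52.6 and 51.1, and Nrg1 with 87.0 and 28.0, against 5.33 and 19.95, the Control values lying within the range of the TrpnX probe sets.

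Genes of melanosome maturation and transport, most of which serve lysosome-related organelles in many cell types, had a median difference of -0.03 over 28 measured genes (Slc24a5 and Cd63 had no probe set of their symbol alone). Of these, 8 were lower and 4 higher on both MC903 arrays, against 28.2% and 21.6% of all genes, and 16 had overlapping groups. The count of lower genes thus stood near the share over all genes. Tspan10, a tetraspanin, had 10.6 and 16.3 with MC903, both within the range of the TrpnX probe sets, against 30.8 and 74.5 in Control skin. Sytl2, an adaptor of Rab27 proteins, had 218 and 207 with MC903, against 352 and 354 in Control skin (-0.69 ± 0.15, limma, adjusted p = 0.214). Gpnmb, a melanosome protein related to Pmel that macrophages make too, had 823 and 1079 with MC903, against 1694 and 1568 in Control skin (-0.78 ± 0.20, limma, adjusted p = 0.245). Gpr143, a receptor of the melanosome membrane, read only 37.2 and 23.6 with MC903, against 34.3 and 32.3 in Control skin, near the TrpnX range. Limma called 0 genes of these lists after adjustment over all genes, and the setting whose prior follows the signal also called 0. Without adjustment, 4 organelle genes, 3 transcription factors and 4 signal genes lay below 0.05 in the lower direction and 1, 0 and 1 in the higher. Over all genes these shares were 8.39% lower and 6.82% higher.

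**Figure D4:**
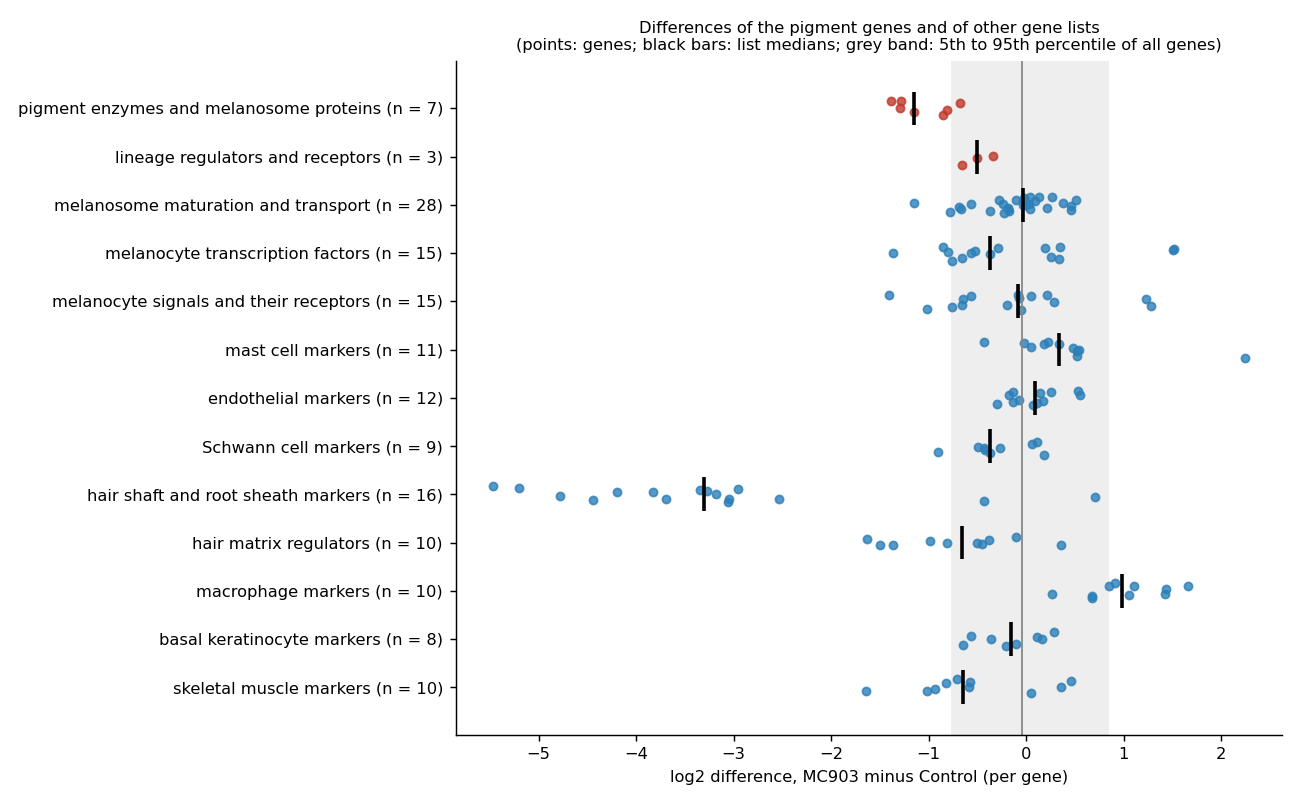
Log2 difference, MC903 minus Control, of every measured gene of each list (points), with list medians as black bars and the 5th to 95th percentile of all 18193 genes as a grey band around the median of all genes. The members (red) have medians of -1.15 and -0.51, the hair shaft and root sheath list lies farthest to the left with a median of -3.31, and the macrophage list to the right with 0.98.

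Some lists of markers of other cells, such as those of hair and macrophages, moved with the groups as well. In others most genes had overlapping groups, as did 8 of 12 endothelial and 8 of 10 skeletal muscle genes. The part of any of these lists in the pigment results was not tested. For these and the lists below, the shares over all genes were 28.2% lower and 21.6% higher on both MC903 arrays. Hair shaft and root sheath markers were lower on both MC903 arrays for 15 of 16 measured genes, with a median of -3.31 and summed signals of 12599 and 10523 with MC903, against 52960 and 92142 in Control skin. The exception, Krt36, was higher. Krt33a, a hair keratin, had 133 and 101 with MC903, against 2827 and 4630 in Control skin, and Krt33b and Krtap8-1 differed by -5.20 and -5.47. None of the 16 stayed within the TrpnX range on all arrays, and the same held for every other cell type list. Regulators of the hair matrix, the growing cells beside which follicle melanocytes sit, were lower on both MC903 arrays for 8 of 10 genes, with a median of -0.66. Summed, they read 4009 and 5143 with MC903, against 4983 and 6184 in Control skin. Msx2, a homeobox factor of the matrix, had 162 and 223 with MC903, against 507 and 631 in Control skin. Shh, the hedgehog ligand of the growing follicle, had 7.33 and 41.5 with MC903, against 83.2 and 114 in Control skin. The 7.33, on MC903 replicate 1, lay within the range of the TrpnX probe sets.

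Between the 2 Control arrays, 50.5% of all genes were higher on replicate 1. All 16 hair shaft and root sheath genes were lower on Control replicate 1 than on replicate 2 (median log2 difference -0.85), whereas 6 of the 7 pigment genes were higher on Control replicate 1 (median 0.32). The hair genes differed more between the groups, so the pigment genes, taken relative to them, stood at 1.94 and 2.52 on the MC903 arrays, against 0.61 and -0.61 on the Control arrays. Skeletal muscle markers, too, were all higher on Control replicate 1 (10 of 10 genes, median 0.81). Their sums were 12567 and 47178 with MC903, against 59722 and 36672 in Control skin, with 2 of 10 genes lower on both MC903 arrays.

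Kit and Ednrb are also expressed by other skin cells, whose markers are given here, and their part in the receptor differences was not tested. Mast cells, which depend on Kit, were represented by 11 genes with a median difference of 0.34, of which 3 were higher and 1, Mrgprb1, lower on both MC903 arrays (-0.43 ± 0.18). Their sums were 18350 and 11756 with MC903, against 11703 and 10946 in Control skin. Of the 11 genes, 9 had a positive difference and 2, Mrgprb1 and Cpa3, a negative one. Cpa3, a mast cell protease, differed by -0.02 ± 0.17. Tpsb2 differed by 0.53 ± 0.23 and was higher on both MC903 arrays, and Tpsab1 differed by 0.55 ± 0.43 with overlapping groups. Hdc, the enzyme that makes histamine and is found in mast cells, basophils and neutrophils, had 1804 and 340 with MC903, against 160 and 149 in Control skin. Its probe set has the _s_at suffix, which warns that transcripts of related genes may bind it. Endothelial markers, from cells that can express Ednrb, had a median of 0.09 over 12 genes, with 3 higher and 1 lower on both MC903 arrays and sums of 4723 and 4163 with MC903, against 4409 and 3732 in Control skin. Schwann cell markers, from a lineage that shares Sox10 with melanocytes, had a median of -0.37 over 9 genes, with 4 lower and 1 higher. Their sums were 13418 and 14414, against 18235 and 14484, and Mbp, a myelin protein, had 982 and 1146, against 2738 and 1460. Macrophage markers were higher on both MC903 arrays for 10 of 10 genes (median 0.98), with sums of 61616 and 37444, against 27233 and 25563. Basal keratinocyte markers had a median of -0.15 over 8 genes, with 5 lower and 3 higher, and sums of 112829 and 109436, against 115924 and 117399.

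**Figure D5:**
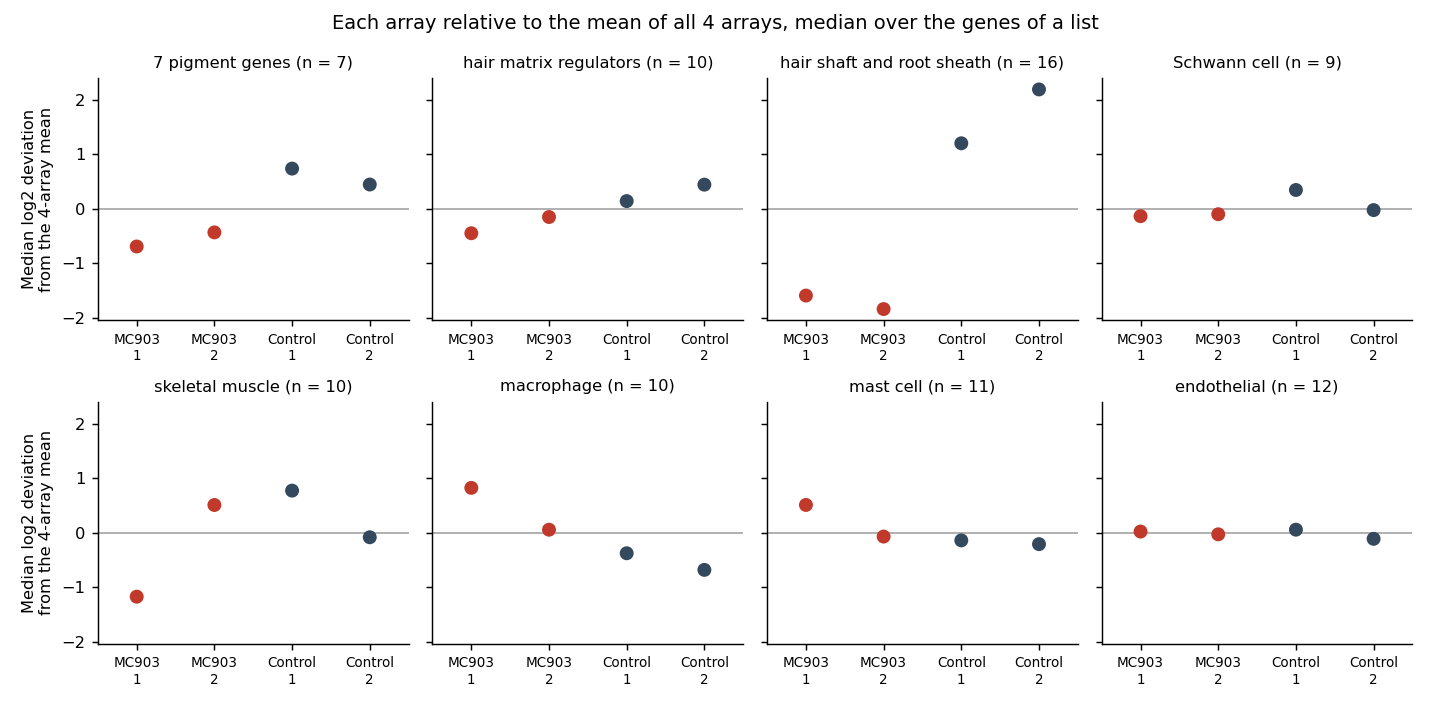
Median, over the genes of a list, of the log2 deviation of each array from the mean of the 4 arrays, with MC903 replicates 1 and 2 (red) left of Control replicates 1 and 2 (dark). The pigment genes stand at -0.69 and -0.43 on the MC903 arrays and at 0.74 and 0.45 on the Control arrays. The hair shaft and root sheath list stands at -1.59 and -1.84 on the MC903 arrays and at 1.20 and 2.19 on the Control arrays.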

How the data were processed

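Per array, 200 ng of total RNA from treated skin had received a biotin label, per the labels' protocols. The authors deposited linear signal intensity values for 45101 probe sets and 4 arrays. The software and scaling behind them are not given in the sources used here. On each array the deposited intensity values average 500 once 2% at either end is trimmed. There are no detection calls.

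Probe sets were named from the platform annotation, updated by Entrez gene ID to RefSeq (GRCm38.p6): 34945 had 1 symbol (34741 matched by ID), 932 several and 9160 none, besides 64 array controls. For a gene with several probe sets, that of the highest mean log2(signal + 16) over the arrays was used. The test of MC903 against Control came from limma 3.58.1 (R 4.3.3; lmFit, eBayes, constant prior, Benjamini-Hochberg over 18193 genes, no filter). Members and gene lists were chosen with earlier results of these data known. Named genes were all members and, beyond them, genes among the 3 largest absolute differences of each list among genes above the TrpnX range on an array, and Sox10, Pax3, Mc1r, Gpr143, Kitl and Edn3. Krt36, Cpa3, Mrgprb1, Edn1 and Edn2 were named after their values were seen. On simulated data for MC903 against Control (18193 genes, 10 runs) the test recovered 94.5% of 4-fold changes. The changes were planted only in genes above the median of mean signals, which leaves out genes as dim as Oca2 and Slc45a2. The simulated spread was taken from the limma fit whose prior follows the signal. Unchanged genes called in error came to 3.5 per run (median). On the arrays themselves the same test called 0 genes. Even Krt33a, with a difference of -4.78, had an adjusted p of 0.0854 (limma). The simulated share therefore cannot be read as the share of real 4-fold changes that the test finds on these arrays. The number of arrays limits the precision.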

Additional observations from a re-analysis of the deposited data

How the results depend on the processing

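The settings varied were limma's prior, the scaling, the added constant, a filter on dim genes, the choice of probe set, a replicate block and each array left out. Of 157 values of single members under these settings, 153 kept the direction and the side of the threshold. The exceptions were Tyr (adjusted p = 0.0464) and Pmel (adjusted p = 0.0412) when the 50% of genes with the lowest mean were left out, which also removed Oca2 and Slc45a2, Pmel with a prior that follows the signal (0.0406; with this prior and without MC903 replicate 2 Tyr and Tyrp1 were called too, at 0.0200 and 0.0118), and Ednrb, whose difference was 0.17 without MC903 replicate 2 and -1.47 without MC903 replicate 1. The median over the 10 members, -0.83, ranged from -1.05 to -0.85 with 1 array left out, and was -0.75 with centring on array medians. That of the 7 pigment genes ranged from -1.37 to -0.94 with 1 array left out, and that of Mitf, Kit and Ednrb from -0.49 to -0.39. The count of members with the remaining MC903 arrays below the remaining Control arrays was 9 or 10 with 1 array left out. With the stricter filter it was 7 of 8. The share over all genes was not computed for these settings, and 1 array against 2 separates more easily than 2 against 2. Limma's 0 calls over all genes became 168 (98 higher, 70 lower) with a prior that follows the signal, 3 with centring on medians, 70 with an added constant of 64, 42 and 177 without the 25% and 50% of genes with the lowest mean, 12 with probe sets averaged and 5 with probe sets chosen by the linear mean, the last added after seeing the data, as were leaving out arrays with the signal-following prior and the split of the members by role. With the replicate block limma called 0 genes, and the adjusted p of Pmel was 0.303. Nothing in the labels pairs equal numbers, and same-numbered deviations had a correlation of -0.06 across genes. The causes of these changes were not tested.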
